A study of Mus musculus with 6 samples.

Results

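The genes described here are 10 surface markers by which LSK cells are divided into hematopoietic stem cells and multipotent progenitors: Kit, Flt3, Cd34, Slamf1, Cd48, Procr, Esam, Eng, Tek and Thy1. They were chosen by name, and all 10 had a probe set assigned to exactly 1 symbol, out of 22180 genes measured. LSK cells are bone marrow cells without lineage markers that carry Sca1 and cKit. RNA of such sorted cells was measured in 6 samples on Affymetrix MoGene 2.0 ST arrays, 1 array per sample, in 3 samples labelled Tifab+/+ (wild type, WT) and 3 labelled Tifab-/- (knockout, KO), each group with 3 mice per the labels. They are called WT and KO arrays, by label. All 6 samples came from mice transplanted with marrow of the labelled genotype, and the protocol names lethally irradiated syngeneic Boy/J recipients given 7.0 Gy and, 3 hours later, 4.75 Gy. The labels give 3 months, worded as an age. They name no marker to tell donor from recipient cells in the sort, so the share of remaining recipient cells is not known here. The knockout is labelled as a loss of both alleles in the transplanted marrow, with no Cre or transgene named.

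Surface proteins order the LSK fraction. Long-term stem cells carry CD150 (Slamf1) and EPCR (Procr) and lack CD48 and FLT3, whereas the lymphoid-primed multipotent progenitors gain FLT3, and CD34 appears as mouse stem cells become progenitors. ESAM, endoglin (Eng), TIE2 (Tek) and low levels of THY1 are also enriched on stem cells, and the first 3 of these are shared with endothelium. A change in the makeup of the LSK fraction would be read from these genes in sorting panels, and the comparison here asks what their mRNA did in KO cells.

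None of the 10 genes separated the genotypes. In limma, which fits a linear model with moderated spread to each of the 22180 genes, 0 of the 10 had a Benjamini-Hochberg adjusted p under 0.05 and 0 had an unadjusted p under 0.05. The background over all genes was 0% (0 genes) at the adjusted threshold and 10.3% (2274 genes) at the unadjusted one, 4.74% higher and 5.51% lower in KO arrays. The 3 KO values overlapped the 3 WT values for all 10 genes, while 16.1% of all genes had no such overlap. Of the 10 genes, 5 were on the higher side in KO arrays and 5 on the lower side, with a median log2 difference (KO minus WT) of -0.03 against 0.00 over all genes. The median size of the difference, without its sign, was 0.09 log2 units for the 10 genes and 0.16 over all genes.

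**Figure D1:**
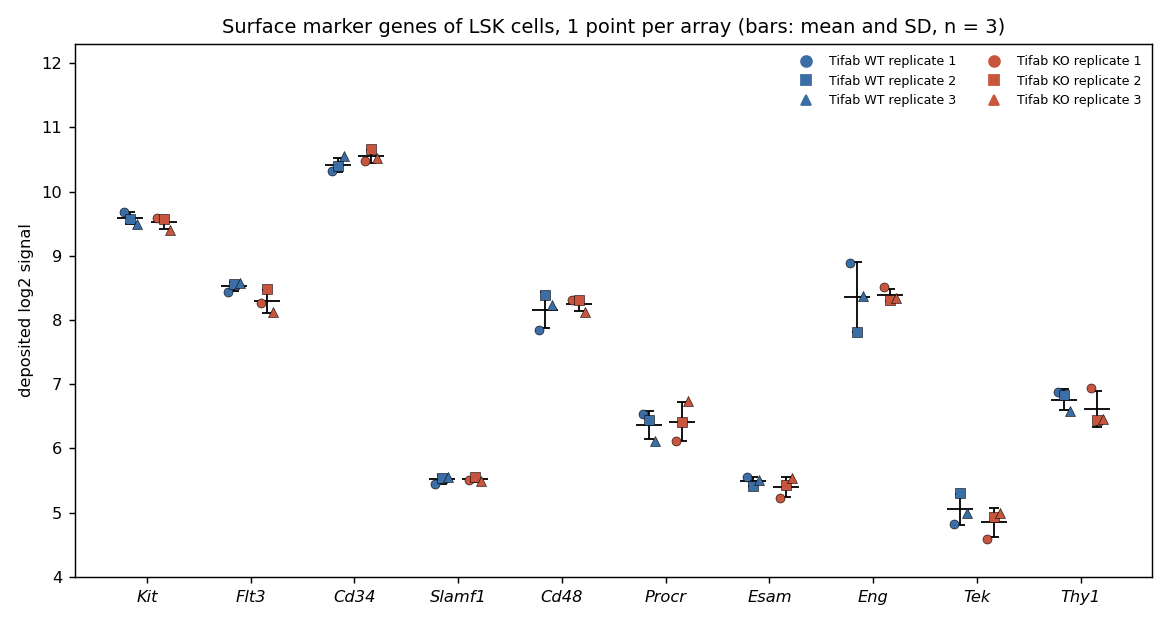
Deposited log2 signal of the 10 surface marker genes (vertical axis), 1 point per array, WT arrays in blue and KO arrays in red, with the mean and SD of 3 arrays. The blue and red points of every gene overlap, and the widest spread is that of Eng in the WT arrays, from 7.81 to 8.89.

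The knocked-out gene gave no check on the labels: signal of Tifab was 4.99, 5.37 and 5.53 in WT and 5.21, 5.12 and 5.26 in KO arrays, so every direction rests on the labels. Of the genes of the sort, Kit read 9.41 or more in all 6 arrays. The pan-leukocyte gene Ptprc, which is not part of the stated gate, measured 8.66 to 8.83. No probe set is named Ly6a, the gene of Sca1, in the annotation used here, so that side of the gate was not checked. S100a8 and S100a9, calprotectin genes abundant in neutrophils and monocytes, cells that the lineage gate is meant to remove, read 11.41 to 11.57 and 10.54 to 10.76 over the 6 arrays. Whether same-labelled samples came from separate transplants is stated only as 3 mice per group, so p-values measure the spread between these samples.

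Upstream sequences are shown for 4 of the genes: the receptor pair Kit and Flt3, whose products share a receptor family, Slamf1, which varied least between arrays, and Eng, which varied most. RefSeq's promoter table (build GRCm38.p6) held a window for 8 of the 10 genes, with no entry for Esam and Thy1. Each line gives the 250 bases before the annotated start, 5′ to 3′ on the gene's strand, and capitals mark matches on either strand to AGATAA, bound by factors of the GATA family, to TGTGGT, bound by RUNX factors, or to GAGGAA, bound by PU.1 and related ETS factors.
Kit, chr5:75574737-75574986, + strand: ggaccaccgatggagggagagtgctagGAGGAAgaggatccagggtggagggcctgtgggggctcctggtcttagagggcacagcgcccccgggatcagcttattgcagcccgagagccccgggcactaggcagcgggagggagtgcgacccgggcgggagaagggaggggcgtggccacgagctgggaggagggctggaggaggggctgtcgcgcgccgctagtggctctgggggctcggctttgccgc
Flt3, chr5:147400490-147400739, - strand: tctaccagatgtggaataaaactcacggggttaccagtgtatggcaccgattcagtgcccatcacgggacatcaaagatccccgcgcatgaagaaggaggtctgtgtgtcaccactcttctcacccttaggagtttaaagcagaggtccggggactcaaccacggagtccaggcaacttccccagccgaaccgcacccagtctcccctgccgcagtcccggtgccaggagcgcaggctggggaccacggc
Slamf1, chr1:171766882-171767131, + strand: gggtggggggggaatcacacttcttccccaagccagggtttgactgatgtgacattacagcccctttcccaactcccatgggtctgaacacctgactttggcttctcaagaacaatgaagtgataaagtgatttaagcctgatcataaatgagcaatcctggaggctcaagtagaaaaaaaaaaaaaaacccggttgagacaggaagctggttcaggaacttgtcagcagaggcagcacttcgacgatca
Eng, chr2:32646345-32646594, + strand: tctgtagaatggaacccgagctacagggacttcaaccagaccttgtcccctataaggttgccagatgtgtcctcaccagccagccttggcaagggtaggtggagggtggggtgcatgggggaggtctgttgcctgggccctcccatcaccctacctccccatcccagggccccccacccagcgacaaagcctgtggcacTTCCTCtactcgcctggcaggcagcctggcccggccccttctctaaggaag
The Kit and Eng windows each held 1 match to GAGGAA, and the Flt3 and Slamf1 windows held no match to any of the 3 motifs. Over the 8 genes with a window, GAGGAA was found for 2 (23.3% of all 32851 promoter windows of the table), TGTGGT for 1, Cd48 (14% of all windows), and AGATAA for 0 (9.99% of all windows). The looser E-box CANNTG, not marked in capitals, was found for 6 of the 8 genes and in 66.2% of all windows. The G and C content of the printed windows was 70.8% for Kit, 59.2% for Flt3, 47.2% for Slamf1 and 62.4% for Eng. A match of letters is a description of the sequence and was not tied to the expression values.

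Kit and Flt3 encode receptor tyrosine kinases of the same class, the receptors for stem cell factor and FLT3 ligand. Kit, whose protein is part of the sort gate in both groups, measured 9.69, 9.58 and 9.50 in the WT arrays and 9.59, 9.57 and 9.41 in the KO arrays. The groups overlapped, KO replicate 3 was lowest, and the log2 difference was -0.07 ± 0.10 (SE; 95% interval -0.30 to 0.17, adjusted p = 0.861 in limma), or -0.01 without KO replicate 3 and -0.11 without WT replicate 3. Flt3, which rises as cells leave the stem cell state for lymphoid-primed progenitors, measured 8.44, 8.56 and 8.58 in the WT arrays and 8.27, 8.48 and 8.12 in the KO arrays. KO replicates 1 and 3 lay below every WT array, and KO replicate 2 lay above WT replicate 1. Flt3 had both the largest difference and the smallest p of the 10 genes, at -0.24 ± 0.13 (SE; 95% interval -0.54 to 0.05, unadjusted p = 0.0984, adjusted p = 0.556 in limma), which is 0.846 of the WT level. Its difference rested in part on KO replicate 3: without that array it was -0.15, and without KO replicate 2 it was -0.34 (unadjusted p = 0.0385, adjusted p = 0.603 in limma). In the array-by-array difference of Kit minus Flt3, the WT values of 1.25, 1.02 and 0.91 overlapped the KO values of 1.33, 1.09 and 1.29.

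Cd34 encodes a sialomucin that is low on mouse long-term stem cells and higher on progenitors. It measured 10.32, 10.40 and 10.55 in the WT arrays and 10.47, 10.66 and 10.52 in the KO arrays. KO replicate 2 was highest and WT replicate 1 lowest, and WT replicate 3 lay inside the KO range. The log2 difference of 0.13 ± 0.09 (SE; 95% interval -0.08 to 0.33, adjusted p = 0.661 in limma) had an upper bound of 1.26-fold, and the difference was 0.19 without WT replicate 3 and 0.07 without KO replicate 2. A second probe set that lists Cd34 together with Gm16897 was not used for the gene; it read 5.26 to 5.83 and differed by -0.07.

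**Figure D2:**
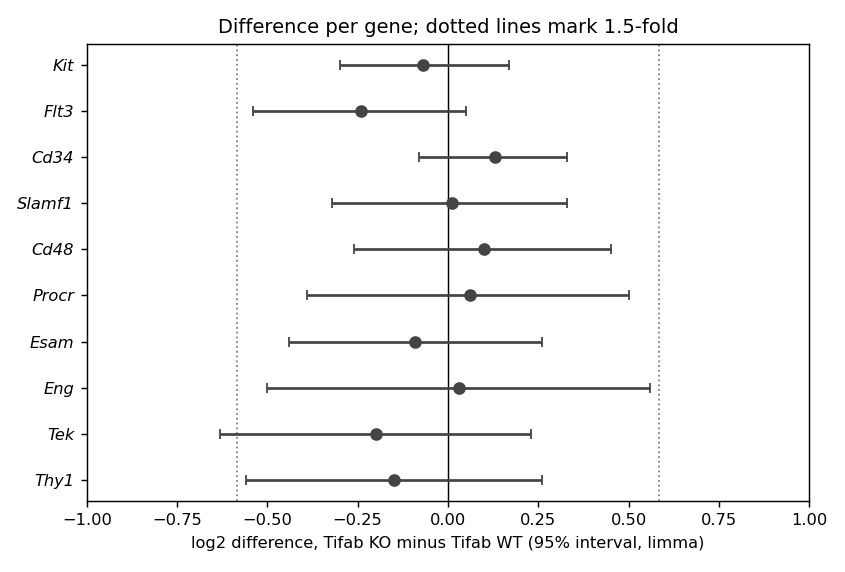
Log2 difference between KO and WT arrays (horizontal axis) for each of the 10 genes, with the 95% interval from limma and dotted lines at 1.5-fold. Every interval includes 0, none reaches 2-fold, and that of Tek, down to -0.63, is the only interval that crosses a dotted line.

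Slamf1 and Cd48 encode members of the SLAM family of immunoglobulin-like receptors, which are set against each other in stem cell gating: CD150-positive, CD48-negative LSK cells are the stem cell gate. Slamf1 measured 5.44, 5.54 and 5.56 in the WT arrays and 5.51, 5.56 and 5.49 in the KO arrays. All 6 values lay within 0.12 log2 units, and the difference was 0.01 ± 0.14 (SE; 95% interval -0.32 to 0.33, adjusted p = 0.993 in limma). Its spread within groups was at percentile 1.21 of all genes, so the interval is set mostly by the spread that the model borrows from other genes of like signal. Cd48 measured 7.84, 8.39 and 8.24 in the WT arrays and 8.31, 8.31 and 8.13 in the KO arrays. WT replicate 1 stood below the others, and the difference of 0.10 ± 0.16 (SE; 95% interval -0.26 to 0.45, adjusted p = 0.874 in limma) became -0.06 without it. The array-by-array difference of Slamf1 minus Cd48 was -2.39, -2.84 and -2.67 in the WT arrays and -2.80, -2.75 and -2.64 in the KO arrays, which overlap. These differences set 2 probe sets of unlike sensitivity against each other, so only their change between arrays can be read.

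Cd48 and Slamf1 are direct neighbours on the chromosome by the RefSeq gene table of GRCm38.p6, with no measured gene between them, inside a run of SLAM family genes. Of the 7 genes of that run, none had a difference with an unadjusted p under 0.05. The other members were Cd244a, the CD48 receptor 2B4, at -0.21, Ly9 at 0.05, Cd84 at -0.07 and Slamf6 at -0.20. Slamf7, the gene directly before Cd48, differed most between arrays: it read 5.81, 6.17 and 7.69 in the WT arrays and 6.55, 8.71 and 6.53 in the KO arrays. The wide spread of Slamf7 was thus not shared by Cd48 and Slamf1 beside it, which ranged over 0.55 and 0.12 log2 units.

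**Figure D3:**
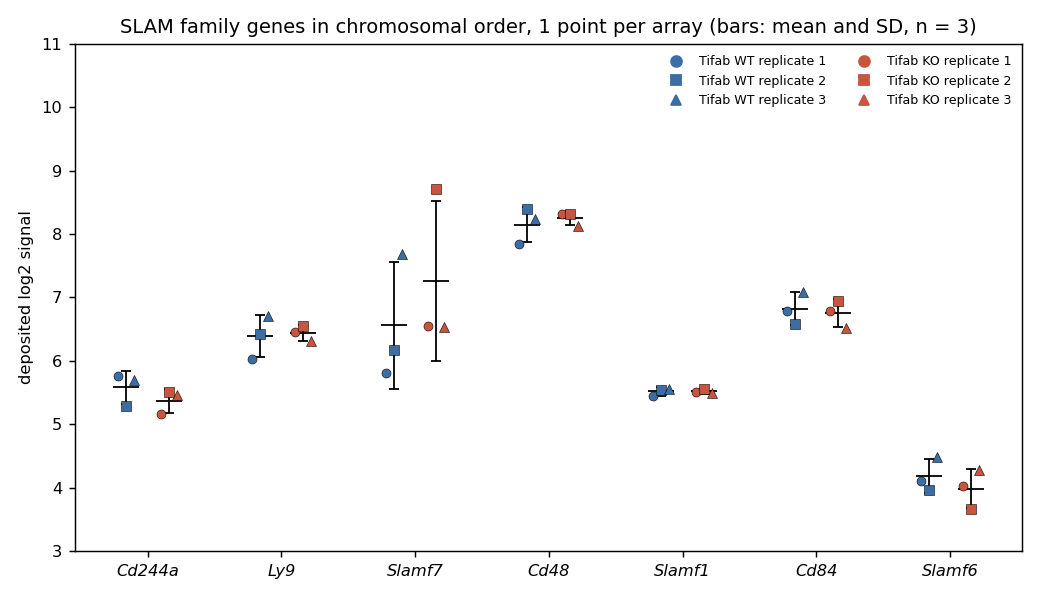
Deposited log2 signal (vertical axis) of 7 SLAM family genes in chromosomal order, 1 point per array, with the mean and SD of 3 arrays per genotype label. Slamf7 has 1 high point per label (7.69 and 8.71) and its other 4 points at 6.55 or lower, while the 6 points of Slamf1 nearly coincide.

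Procr encodes the endothelial protein C receptor (EPCR), one of the most selective surface markers of mouse stem cells. It measured 6.53, 6.44 and 6.12 in the WT arrays and 6.11, 6.41 and 6.74 in the KO arrays. The KO arrays held both the highest and the lowest value of the 6, and the difference was 0.06 ± 0.20 (SE; 95% interval -0.39 to 0.50, adjusted p = 0.947 in limma). It was -0.10 without KO replicate 3 and -0.07 without WT replicate 3. In the array-by-array difference of Procr minus Flt3, KO replicate 3 stood highest at -1.38, the other KO arrays were at -2.15 and -2.07, and the WT arrays were at -1.91, -2.12 and -2.46. Both groups overlapped there too.

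Esam, a junctional adhesion protein of endothelium and stem cells, measured 5.55, 5.41 and 5.51 in the WT arrays and 5.23, 5.43 and 5.54 in the KO arrays. KO replicate 1 was lowest, the other KO arrays lay among the WT ones, and the difference was -0.09 ± 0.16 (SE; 95% interval -0.44 to 0.26, adjusted p = 0.877 in limma). It was -0.01 when KO replicate 1 was left out and -0.16 when KO replicate 3 was. Tek encodes TIE2, the receptor for angiopoietins, which is linked to stem cell quiescence in the niche. Its signal, at percentile 57.8 of all genes, was 4.83, 5.31 and 4.99 in the WT arrays and 4.59, 4.94 and 5.00 in the KO arrays. KO replicate 1 was again lowest and WT replicate 2 highest. The difference of -0.20 ± 0.19 (SE; 95% interval -0.63 to 0.23, adjusted p = 0.747 in limma) became -0.07 when WT replicate 2 was left out and -0.31 when WT replicate 1 was. The lower bound of Tek corresponds to 0.648 of the WT level, and Tek was the 1 gene of the 10 whose interval still held a 1.5-fold change.

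Eng encodes endoglin, a co-receptor for ligands of the TGF-beta family. It measured 8.89, 7.81 and 8.38 in the WT arrays and 8.51, 8.32 and 8.34 in the KO arrays. All 3 KO arrays lay inside the WT range, whose width of 1.08 log2 units compares with 0.19 in the KO arrays. The spread of Eng within groups was at percentile 90.6 of all genes, the highest of the 10. Its difference of 0.03 ± 0.23 (SE; 95% interval -0.50 to 0.56, adjusted p = 0.977 in limma) was decided by single WT arrays: it was 0.30 when WT replicate 1 was left out and -0.24 when WT replicate 2 was. Thy1, a GPI-anchored protein that is low on stem cells and high on T cells, measured 6.88, 6.83 and 6.58 in the WT arrays and 6.94, 6.44 and 6.46 in the KO arrays. KO replicate 1 was the highest of the 6 and the other 2 KO arrays the lowest, with a difference of -0.15 ± 0.18 (SE; 95% interval -0.56 to 0.26, adjusted p = 0.811 in limma). It was -0.31 without KO replicate 1 and -0.06 without KO replicate 2.

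**Figure D4:**
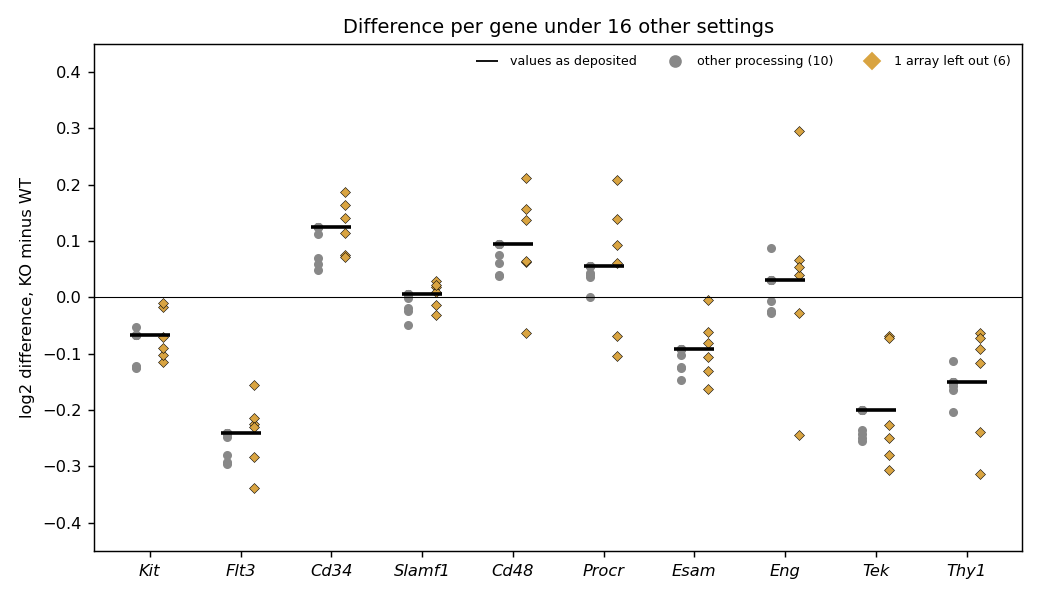
Log2 difference (KO minus WT, vertical axis) of each of the 10 genes as deposited (black bar), under 10 other processing settings (grey) and with 1 array left out at a time (gold). Leaving out an array moved Eng most, from -0.24 to 0.30, while Flt3, Kit, Esam, Tek and Thy1 kept a negative and Cd34 a positive sign in all 16.

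Markers of other cells were read beside these values, because several of the 10 genes are not restricted to LSK cells. In bulk RNA, fewer cells of a type and less RNA per cell cannot be told apart. For endothelium, which shares Esam, Eng, Tek and Procr, the log2 of the summed signal of 12 markers was 8.49 to 8.68 in the WT and 8.51 to 8.59 in the KO arrays. In every array 7 of the 12, among them Cdh5, Kdr and Flt1, lay below 4.42, the median signal of all genes. WT replicates 1 and 2, which held the highest and the lowest Eng value, had the same endothelial sum of 8.49. The brightest genes in that sum were Pecam1 (7.16 and 7.25 in these 2 arrays) and Egfl7 (6.18 and 6.14), so it says little of the dim endothelial genes. The source of the Eng spread was not tested. For T cells, which share Thy1, the sum of 7 measured markers of 9 was 6.69 to 7.17 in the WT and 6.90 to 7.14 in the KO arrays, with Cd3g, Cd4 and Cd8a below the median signal throughout. For mast cells and basophils, which share Kit, the sum of 8 markers was 8.63 to 8.91 and 8.60 to 8.93. For dendritic cells, which share Flt3, that of 6 measured markers of 8 was 10.21 to 10.71 and 10.50 to 10.85. The dendritic cell sum is mostly a reading of the MHC class II genes H2-Ab1 (9.41 to 10.07 over the 6 arrays) and H2-Aa (8.02 to 8.69). Itgax lay below the median signal throughout, and Clec9a and Cd74 were not measured. The groups overlapped in each of these sums, and the part of these cells in the values of the 10 genes was not tested.

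The remaining marker sums also overlapped, except that of stroma. The sum of 9 neutrophil markers was 12.47 to 12.72 in the WT and 12.46 to 12.74 in the KO arrays, that of 6 measured B cell markers of 7 was 7.84 to 9.12 and 8.41 to 8.87, and that of 3 measured erythroid markers of 9 was 5.36 to 6.11 and 5.66 to 5.88. The sum of 9 macrophage markers was 7.74 to 8.20 and 7.35 to 7.86, with Cd5l (-1.45), Vcam1 (-0.74) and C1qb (-0.51) lower and C1qa (0.52) higher at an unadjusted p under 0.05. That is 4 of 9 macrophage markers against 10.3% of all genes, and 4 of the 9 had KO and WT values apart, against 16.1%. The other marker genes at that level were the mast cell gene Ms4a2 (-0.57) and the neutrophil collagenase gene Mmp8 (-0.85). Ms4a2 lay below the median signal of all genes in every array. The sum of 7 stromal markers was 6.54 to 6.58 and 6.47 to 6.51, and 6 of those 7 lay below the median signal of all genes in every array.

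Genes that act with the 10 markers were read from lists chosen by function. None of them passed the adjusted threshold in limma, and the values of named genes are given as such. The counts at an unadjusted p under 0.05 in these lists stand beside 10.3% of all genes at that level in limma. Among 17 measured further surface genes of stem cells, 10 were higher and 7 lower (median 0.03), with 1 in each direction at an unadjusted p under 0.05. These were the tetraspanin gene Cd81, at 9.66, 9.60 and 10.04 against 9.95, 10.29 and 10.25 (log2 difference 0.40, adjusted p = 0.397 in limma), and Il18r1, an interleukin-18 receptor subunit, at 5.25, 5.28 and 5.26 against 4.71, 5.03 and 4.72 (-0.45, adjusted p = 0.405 in limma). The Cd81 groups overlapped, and those of Il18r1 did not. The count of 2 in this list was 1 with quantile normalization and without WT replicate 2, KO replicate 1 or KO replicate 2, and at most 3 over 15 alternatives. Podxl, a sialomucin related to CD34, differed by 0.32.

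Of 14 surface genes of lymphoid-primed progenitors, 7 were higher and 7 lower (median 0.02), and 1 was lower at an unadjusted p under 0.05. This was Ccr7, a chemokine receptor of lymphoid homing, at 5.31, 5.39 and 5.60 in the WT and 4.79, 4.51 and 5.13 in the KO arrays (log2 difference -0.62, adjusted p = 0.362 in limma), with no overlap. Cd53 and Notch1 differed by 0.30 and -0.31. The count of 1 became 2 with the replicate number as a block and 3 without WT replicate 3. In this list 5 of 14 genes, Ccr7, Notch1, Cd27 (0.20), Il12rb2 (0.33) and Cd93 (-0.12), had KO and WT values apart, in both directions, against 16.1% over the whole array. The same count was 1 of 17 for the further stem cell surface genes and 3 of 14 for the myeloid and megakaryocyte-erythroid list. It was 2 of 17 around KIT and FLT3, 1 of 10 for the SLAM list, 2 of 16 for TIE2 and endoglin and 2 of 7 for the EPCR pathway. Of 14 surface genes of myeloid and of megakaryocyte and erythroid progenitors, 6 were higher and 8 lower (median -0.05). The scavenger receptor gene Cd36, at -0.35 and below the median signal of all genes, was the 1 with an unadjusted p under 0.05, while the growth factor receptor genes Csf3r and Csf1r differed by 0.26 and 0.24. The count of 1 in this list was 0 in 6 of 15 alternatives and 3 without WT replicate 3. Those 6 were that block, the setting without dim genes, and leaving out WT replicate 2 or any 1 of the 3 KO replicates. The setting without dim genes dropped the lowest 40% by signal. Cd36, at percentile 28.8, was not tested there, so that 0 says nothing of its difference.

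Around the receptors themselves, 17 measured ligands and signalling partners of KIT and FLT3 split into 6 higher and 11 lower (median -0.02), with 0 at an unadjusted p under 0.05. Spred1, an inhibitor of RAS and MAP kinase signalling, differed by -0.31, the adaptor gene Shc1 by -0.33 and Sh2b3, whose product LNK restrains cytokine receptor signalling, by 0.28. The count of 0 became 1 with quantile normalization, median centring, cyclic loess and without WT replicate 1. Of 10 measured SLAM family genes and CD48 partners, 5 were higher and 5 lower (median -0.01) and 0 had an unadjusted p under 0.05, with Slamf8 at -0.47 and Slamf9 at 0.83. This count became 1 in 6 of 15 alternatives: array weights, the 3 other normalizations and leaving out WT replicate 1 or WT replicate 3. Of 16 genes of the TIE2 and endoglin pathways, 11 were higher and 5 lower (median 0.04). Smad7, an inhibitor of TGF-beta signalling, was the 1 with an unadjusted p under 0.05, at 8.39, 7.76 and 7.90 against 7.70, 7.17 and 7.48 (log2 difference -0.57, adjusted p = 0.397 in limma) and without overlap, and Smad1 and Angpt2 differed by 0.26 and -0.21. The count of 1 was 0 without WT replicate 1 or KO replicate 2. Of 7 measured genes of the EPCR pathway, 4 were higher and 3 lower (median 0.17). The thrombin receptor gene F2r, at 9.48, 9.24 and 9.40 against 9.09, 8.99 and 9.18 (-0.29, adjusted p = 0.434 in limma), was the 1 with an unadjusted p under 0.05 and did not overlap, and Proc and Pros1 differed by 0.24 and 0.23. The count of 1 was 0 without the intensity trend and without WT replicate 1, WT replicate 3, KO replicate 1 or KO replicate 2.

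**Figure D5:**
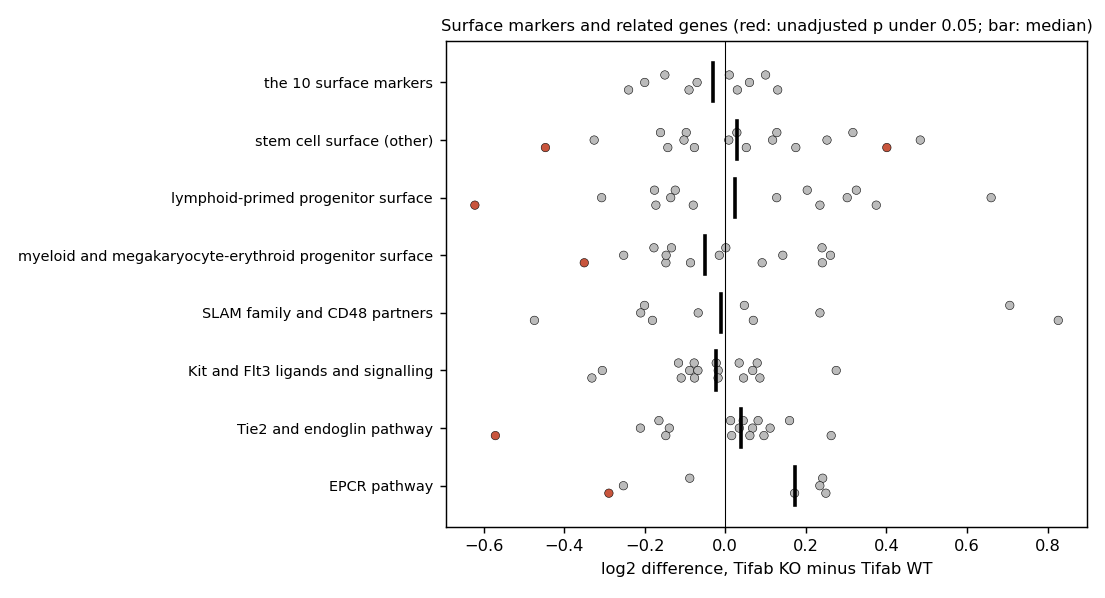
Log2 difference (KO minus WT, horizontal axis) of the 10 surface markers and of the measured genes of 7 related lists, 1 point per gene, red where the unadjusted p was under 0.05 and with a bar at each median. No red point lies among the 10 markers, whose values run from -0.24 to 0.13, and each other list holds at most 2.

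Genes whose values followed a marker most closely over the 6 arrays were found for Flt3, Cd34 and Tek, the 3 markers with the smallest p, by the root mean square difference of values centred on each gene's mean. This covered 10212 genes above the median signal, leaving out predicted genes, genes of small RNAs and the segments of antigen receptors. Of the sex-linked genes, only Xist, Ddx3y, Uty, Kdm5d and Eif2s3y were left out. Genes with clone or locus names, such as LOC or AI and a number, and pseudogenes marked -ps were left out too. For Flt3 the nearest were Heatr5a (0.020 log2 units), Tbc1d1 (0.043) and Fbxl6 (0.046), against a median of 0.256 over the genes compared. For Cd34 they were Tlk2 (0.027), Stag1 (0.029) and Wdr18 (0.033), against a median of 0.213. For Tek they were Slc16a1 (0.039), Twf1 (0.061) and Cyp11a1 (0.064), against a median of 0.292. With 6 arrays and this many genes compared, near matches are a description of these samples.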

How the data were processed

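The authors deposited 1 table of log2 values, 41345 probe sets by 6 arrays. Affymetrix Expression Console made them, per the submitters' processing notes. Its version and its background correction, summary, normalization and filters are not stated in the sources used. Array medians lay between 4.05 and 4.10, and the deposited values were used as they stand. Of the probe sets, 23521 had 1 symbol in the platform annotation, 1814 had several and were left out, and 16010 were not listed. Where a gene had more than 1 probe set (1082 genes), the brightest by its mean was used, giving 22180 genes.

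KO and WT arrays were set against each other in limma 3.58.1 (R 4.3.3; lmFit and eBayes with an intensity trend, genotype the only term, two-sided, Benjamini-Hochberg over all genes, threshold 0.05), checked on simulated data. Sums of markers are log2 of summed linear signals. The named genes were the 10 markers, Tifab, up to 3 genes per related list with the smallest unadjusted p and the 3 nearest patterns of 3 markers. From each marker list the 2 brightest genes were eligible, and some further genes (Cd244a, Ly9, Cd84, Slamf6, Cd27, Il12rb2, Cd93, Cd5l, Vcam1, C1qb, Ms4a2, Mmp8 and dim endothelial and T cell genes) were named after their values were seen. The 10 genes and all lists were chosen with earlier results of these data known. The 16 alternatives comprised 10 other settings and 6 fits that left out 1 array each. The precision is limited by 3 arrays per group. Same-numbered arrays did not deviate together.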

Additional observations from a re-analysis of the deposited data

How the results depend on the processing

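Under all 16 alternatives 0 of the 10 genes passed the adjusted threshold in limma. The count of the 10 with an unadjusted p under 0.05, 0 as deposited, was 1 (Flt3, at -0.29 and -0.28) with quantile normalization and with cyclic loess, and 0 to 1 with single arrays left out. The count of all genes at that level, 2274, was 1218 without dim genes, where fewer genes were tested, and 4203 over every probe set, where more were. With 1 array left out, 0 to 1 of all genes passed the adjusted threshold. Differences near 0 turned sign: Slamf1 was at -0.00 with array weights, -0.02 with quantile normalization, -0.05 with median centring and -0.02 with cyclic loess, and Eng at -0.03, -0.02 and -0.01 under the last 3 settings. With 1 array left out, Slamf1 ranged from -0.03 to 0.03, Cd48 from -0.06 to 0.21, Procr from -0.10 to 0.21 and Eng from -0.24 to 0.30. The cause was not tested. Same-numbered arrays of the 2 groups had deviations that correlated at 0.02, -0.031 and -0.088 across genes, and not every array correlated best with its own number. No pairing by number was seen in these values, but with 3 arrays per group they cannot show that there was none. With the replicate number as a block, 2119 genes had an unadjusted p under 0.05, 0 passed the adjusted threshold, and the call of none of the 10 genes changed. Low signals shrink log2 differences, which bears most on Tek, and with 3 arrays per group 1 of the 10 intervals still held a 1.5-fold change.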

Other observations

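Slamf7, the neighbour of Cd48, was read beside other genes of the lists that varied between arrays. Its 2 highest values were 8.71 in KO replicate 2 and 7.69 in WT replicate 3, with 6.55 or lower elsewhere. Slamf9, a further SLAM family gene, was highest in the same arrays (7.25 and 6.78), and so was the macrophage marker Hmox1 (6.09 and 6.63). The B cell receptor gene Cd79a read 7.39 and 8.01 there, but also 7.25 in KO replicate 3, where Slamf7 was at 6.53. The macrophage marker sum, which includes Hmox1, was 7.86 in KO replicate 2 and 8.20 in WT replicate 3. It was 7.84 in WT replicate 1, where Slamf7 was lowest at 5.81. Another macrophage marker, C1qa, did not follow Slamf7. It read 5.53 in KO replicate 2 and 4.91 in WT replicate 3, and was highest in KO replicate 3 at 5.66. No test was made of this pattern, which was noticed in the values.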
